A study of Mus musculus with 10 samples.

Results

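The genes described here are 10 of the 23197 genes counted in single cells during the chemical conversion of mouse embryonic fibroblasts (MEFs) into cells that resemble extraembryonic endoderm (XEN-like cells). They were taken by name as the forkhead factors *Foxa1*, *Foxa2*, *Foxa3*, *Foxq1*, *Foxf2*, *Foxc1*, *Foxc2*, *Foxd1*, *Foxp1* and *Foxo1*, and all 10 had an entry in the count table. Cells were picked by hand on day 0, when they had received no compound, and on days 1, 2, 3, 4, 5, 6, 8, 12 and 20 of the C6FAE cocktail, which holds CHIR99021, a compound abbreviated 6, Forskolin, AM580 and EPZ004777. The groups d0 to d20 are named by day, d8c and d12c were picked from colonies, and the cells used as d6 carry the name d6p, with no statement of what the p means. By the study's methods the MEFs came from embryos of ICR mice without head, limbs and viscera, and the d0 cells stand under the same C6FAE label as the treated cells. After removal of cells with fewer than 4000 detected genes, 670 of 808 cells remained, with 72 on d0, 40 on d1, 83 on d2, 38 on d3, 77 on d4, 36 on d5, 86 on d6, 62 on d8, 20 on d8c, 67 on d12, 51 on d12c and 38 on d20.

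Forkhead factors share a winged-helix domain that binds DNA, and several of them can bind sites in closed chromatin and open it for other factors. Foxa factors act in endoderm and in the liver, gut and lung that form from it, and Foxa2 is also made in the visceral endoderm of the early embryo. Foxc, Foxd and Foxf factors are best known from mesoderm and connective tissue, whereas Foxp1 and Foxo1 are made in many cell types, with Foxo1 held out of the nucleus when PI3K and AKT are active. The 10 genes were thus brought together by textbook role, though they were chosen with earlier results of these data known.

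Each RNA molecule carried a tag (unique molecular identifier, UMI), and values are UMIs of a gene scaled to all UMIs of its cell (CPM), averaged over the cells of a group. Cell names give the day and a running number but not the sequenced batch. All cells were therefore treated as 1 sample with no replicates, no test between groups was made, and intervals given for shares of cells are exact Clopper-Pearson intervals at 95%, which cover counting error only. A gene was called higher or lower where its mean log2(CPM + 1) differed by over 1 between groups and its mean was at least 5 CPM in either group. Since a gene can be missed in a shallow cell, shares of cells with a UMI are also given after thinning every cell to 50000 UMIs. Depth was lowest on d20, with a median of 195480 UMIs per cell, and highest on d2, with 1055206. Median depth was 344196 on d0, 768565 on d12 and 326260 on d12c. The 51 cells of d12c fell apart by running number: the summed level of 10 fibroblast markers averaged 4806 CPM in the 21 cells numbered 1 to 48 and 224 CPM in the 30 cells numbered above 48, and that of 10 XEN markers averaged 900 and 3924 CPM. These number ranges of d12c are therefore given separately, and whether they stand for batches was not tested. The d4 cells differed by running number as well, with a fibroblast sum of 6652 CPM in cells numbered 1 to 48 and 2128 CPM above 48. Over all cells of a group, the fibroblast sum averaged 3292 CPM on d0, 10313 on d12 and 298 on d20, and the XEN sum 294, 418 and 4243 CPM in the same order.

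The promoters of *Foxa2*, *Foxf2* and *Foxc1* are shown. *Foxa2* and *Foxf2* had higher means on d20 than on d12, and *Foxc1* had a UMI on d12 and none on d20. *Foxa3*, also found on d12 and not on d20, and the other genes with a window are not shown. *Foxq1* and *Foxc2* had no RefSeq entry. RefSeq windows of 300 bases (250 before to 50 after a transcription start, GRCm38.p6) were found for 8 of the 10 genes, 12 windows in all. *Foxa2* has 3 of them, all on the minus strand: window 1 at chr2:148046920-148047219, window 2 at chr2:148045899-148046198 and window 3 at chr2:148045415-148045714. The window of *Foxf2* lies at chr13:31625566-31625865 and that of *Foxc1* at chr13:31806396-31806695, both on the plus strand. Capitals mark matches to the motifs searched, read 5′ to 3′ on the strand of the gene.
*Foxa2* window 1: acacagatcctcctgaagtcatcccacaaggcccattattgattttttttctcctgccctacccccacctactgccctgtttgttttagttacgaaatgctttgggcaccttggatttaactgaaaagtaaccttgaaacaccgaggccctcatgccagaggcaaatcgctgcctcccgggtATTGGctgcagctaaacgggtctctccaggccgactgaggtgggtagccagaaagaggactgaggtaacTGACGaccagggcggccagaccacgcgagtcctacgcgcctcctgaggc
*Foxa2* window 2: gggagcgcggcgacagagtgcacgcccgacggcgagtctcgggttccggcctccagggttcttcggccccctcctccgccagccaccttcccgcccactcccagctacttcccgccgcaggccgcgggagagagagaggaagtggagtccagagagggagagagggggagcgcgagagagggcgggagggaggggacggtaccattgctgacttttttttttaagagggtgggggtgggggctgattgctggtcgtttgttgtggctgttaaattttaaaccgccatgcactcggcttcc
*Foxa2* window 3: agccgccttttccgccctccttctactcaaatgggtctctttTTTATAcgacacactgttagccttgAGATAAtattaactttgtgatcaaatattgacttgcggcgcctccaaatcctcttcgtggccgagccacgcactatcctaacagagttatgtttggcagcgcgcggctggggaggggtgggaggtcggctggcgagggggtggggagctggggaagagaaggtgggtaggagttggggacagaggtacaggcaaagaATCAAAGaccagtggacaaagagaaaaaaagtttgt
*Foxf2* window: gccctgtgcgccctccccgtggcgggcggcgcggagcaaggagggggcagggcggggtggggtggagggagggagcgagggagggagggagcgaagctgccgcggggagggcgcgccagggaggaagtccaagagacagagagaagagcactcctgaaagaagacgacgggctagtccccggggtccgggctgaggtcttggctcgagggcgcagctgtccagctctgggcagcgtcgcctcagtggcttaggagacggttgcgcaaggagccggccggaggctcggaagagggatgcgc
*Foxc1* window: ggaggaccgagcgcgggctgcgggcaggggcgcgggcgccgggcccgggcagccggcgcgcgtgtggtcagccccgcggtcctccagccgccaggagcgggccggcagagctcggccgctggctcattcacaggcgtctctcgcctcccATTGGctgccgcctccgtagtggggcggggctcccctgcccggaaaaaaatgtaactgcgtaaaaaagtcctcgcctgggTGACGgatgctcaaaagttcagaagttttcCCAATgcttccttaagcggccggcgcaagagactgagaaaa

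The letters searched on both strands were TGTTTAC for forkhead factors, AGATAA for zinc finger factors of the Gata family, CTTTGAT for TCF and LEF factors, TGACGTCA and its shorter form TGACG for CREB, TATAAA for the core promoter, TGAGTCA for AP-1, and CCAAT for NF-Y. Every TGACGTCA match also holds TGACG. Positions are counted from the transcription start. *Foxa2* window 3 held AGATAA at position -183, the reverse complement of CTTTGAT at position 15 and the reverse complement of TATAAA at position -208. *Foxa2* window 1 held TGACG at position 2 and the reverse complement of CCAAT at position -68, and window 2 held none of these letters. Of 32851 promoter windows, 11.2% held AGATAA, 3.73% CTTTGAT, 13.6% TATAAA, 20.8% TGACG and 37.4% CCAAT, in either orientation. *Foxc1* held TGACG and CCAAT matches, and *Foxf2* held none. The forkhead letters, found in 3.65% of all windows, occurred among the 12 windows only in that of *Foxa1*, at position -141. TGACGTCA and TGAGTCA, found in 1.79% and 5.20% of all windows, occurred in none of the 12. In 11 of the 12 windows GC content lay between 51.7% and 75.3%, against a median of 52.7% over all windows, and the second *Foxp1* window had 48.7%.

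**Figure D1:**
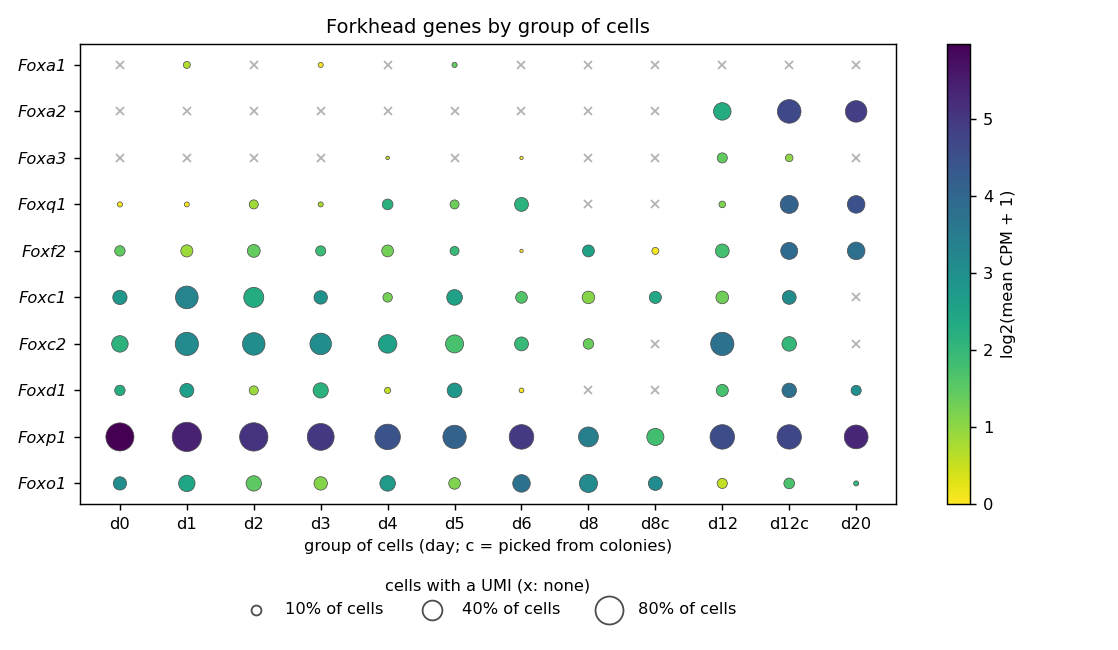
Mean level and share of cells for the 10 genes. Columns are the 12 groups of cells, colour is log2(mean CPM + 1), dot area is the share of cells with a UMI, and a cross marks a group in which no cell had one. *Foxa2* has crosses in the 9 groups up to d8c and dots on d12, d12c and d20, *Foxc1* and *Foxc2* have crosses on d20, and *Foxp1* has a dot in every group.

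*Foxa2*, the endoderm factor, was detected only in the late groups. None of the 514 cells from d0 to d8c had a *Foxa2* UMI, which allows a share of up to 0.584% of the pooled cells. The limits for single groups were wider, up to 4.84% in the 62 d8 cells and 15% in the 20 d8c cells. On d12 it had a mean of 4.00 CPM with a UMI in 21 of 67 cells (31.3%, 20.6 to 43.8%), on d12c 24.8 CPM in 29 of 51 cells (56.9%, 42.2 to 70.7%), and on d20 28.6 CPM in 18 of 38 cells (47.4%, 31.0 to 64.2%). The share of cells on d12 lay above all earlier groups, and the intervals of d12, d12c and d20 overlapped. After thinning, 9 of 66 cells on d12 (13.6%), 14 of 47 on d12c (29.8%) and 12 of 36 on d20 (33.3%) had a UMI.

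Few d12 cells held *Foxa2* at over 20 CPM, 2 of 67 against 14 of 38 on d20. Among the cells with a UMI, the median was 1.93 CPM on d12 and 46.0 CPM on d20, and the highest cell reached 148 and 169.6 CPM. Depth bears on these medians, since 1 UMI is worth more CPM in the shallower d20 cells: the lowest cell with a UMI stood at 0.755 CPM on d12 and 10.2 CPM on d20, so that low levels like those of d12 could be missed on d20. Of the 21 d12 cells with *Foxa2*, 10 had a single UMI, against 1 of the 18 d20 cells. Without its highest cell the d12 mean was 1.81 CPM. In d12c the cells numbered 1 to 48 had a mean of 9.64 CPM (3.66 CPM without the highest cell) and a UMI in 10 of 21, and those numbered above 48 had 35.4 CPM and a UMI in 19 of 30 (43.9 to 80.1% against 25.7 to 70.2%). The 2 intervals overlapped, but 15 later-numbered and 2 earlier-numbered cells were over 20 CPM.

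*Foxa2* on d12 was found in cells that still held fibroblast regulators. All 67 d12 cells had *Prrx1* and *Twist2*, transcription factors of connective tissue. In the 21 cells with *Foxa2* these had means of 336 and 1186 CPM, against 462 and 1642 CPM in the 46 cells without *Foxa2*. *Sox17*, an endoderm factor, had a mean of 180 CPM in the d12 cells with *Foxa2* and 20.8 CPM in those without, and *Gata4*, a zinc finger factor of endoderm and heart, 47.96 and 3.27 CPM. A few cells carried these means: the medians were 5.654 and 5.598 CPM for *Sox17* and 0.936 and 0.845 CPM for *Gata4*. In the 18 *Foxa2* cells without *Foxq1*, *Sox17* averaged 42.6 CPM (19.0 CPM without the highest cell) and *Gata4* 20.3 CPM (1.40 CPM without it). The cells with *Foxa2* were also deeper, with a median of 1068512 UMIs against 726133, and the part of depth in these differences was not tested. On d20, *Prrx1* was found in 1 of the 18 cells with *Foxa2* and *Twist2* in 3, whereas *Sox17* and *Gata4* were found in all 18, and in 38 and 34 of all 38 d20 cells. *Sall4*, a zinc finger factor of XEN and pluripotent cells, was found in 17 of these 18 cells and 35 of all 38, and on d12 in 3 of the 21 *Foxa2* cells and 9 of all 67. Its shares in cells with and without *Foxa2* were thus close, 94.4% and 90% on d20 and 14.3% and 13.0% on d12. Markers of definitive endoderm, the embryonic lineage that also makes Foxa2, were near the floor in the same groups: the summed level of 5 such markers averaged 0.561 CPM on d12, 0.862 on d12c and 0.559 on d20, with *Mixl1* and *T* at 0 on d12, *Cer1* and *Gsc* at 0 on d12c and *Cer1*, *Gsc*, *Mixl1* and *Cxcr4* at 0 on d20.

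The relatives *Foxa1* and *Foxa3*, which act with Foxa2 in gut and liver, were rare. *Foxa1* was found in 4 of 670 cells, 2 on d1, 1 on d3 and 1 on d5, and 40 of its 55 UMIs came from the d5 cell. No late cell had it: 0 of 38 cells on d20 allows a share of up to 7.89%, and 0 of 67 on d12 up to 4.48%. *Foxa3* was found in 12 cells, of which 7 were on d12 (10.4%, 4.30 to 20.3%) and 3 on d12c (5.88%, 1.23 to 16.2%). A single d12 cell with 101 CPM held 86.2% of the d12 UMIs, without which the mean was 0.232 CPM in place of 1.74 CPM. On d20 no *Foxa3* UMI was counted in 38 cells. Among the Foxa genes the late signal was thus that of *Foxa2*, and no mean of *Foxa1* or *Foxa3* reached 5 CPM in any group.

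**Figure D2:**
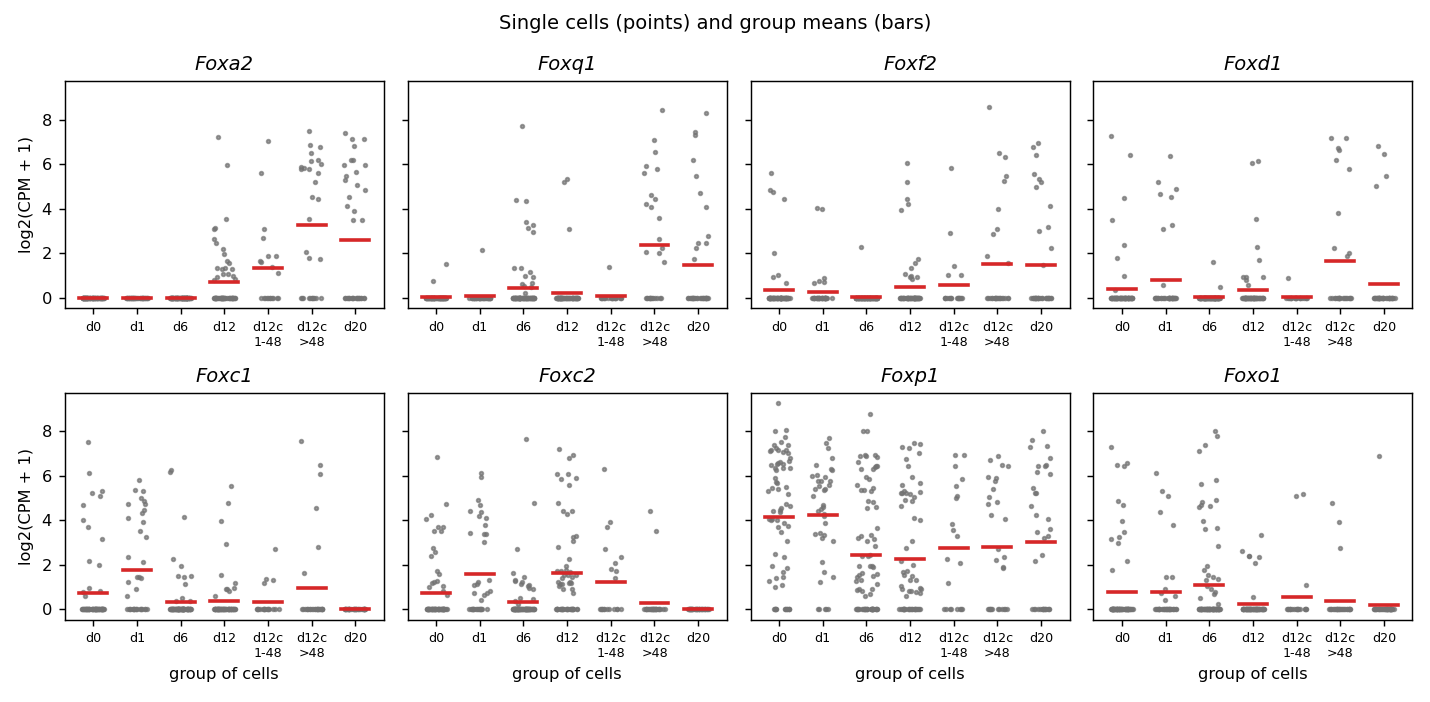
Single cells of 8 genes. Each point is 1 cell, the vertical axis is log2(CPM + 1), the red bar is the mean of the group, and d12c is divided by running number. *Foxa2* cells appear on d12 and lie mostly below 4 on the log2 scale there, whereas on d20, where cells were shallower and 1 UMI weighs more, the cells with a UMI lie above 3, and *Foxc1* and *Foxc2* have no cell above 0 on d20.

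*Foxq1* and *Foxf2* had their highest means on d12c and d20. *Foxq1*, best known from epithelia and hair, was nearly absent at the start, with 0.0355 CPM on d0 and 2 of 72 cells with a UMI (0.338 to 9.68%). It had means of 0.0842 CPM on d1, 0.818 on d2, 0.673 on d3, 3.49 on d4, 1.55 on d5 and 3.39 on d6, and no UMI in 62 d8 or 20 d8c cells, which allows shares of up to 4.84% and 15%. On d12 the mean was 1.23 CPM from 3 of 67 cells (4.48%), on d12c 16.5 CPM from 17 of 51 cells and on d20 21.6 CPM from 12 of 38 cells (31.6%, 17.5 to 48.7%). The d12 share lay within the limit for d8, so an absence between d6 and d12 cannot be read from these counts. The d6 share lay above the d8 limit, but after thinning the intervals of d6 (2.03 to 13.8%) and d8 (0 to 6.06%) overlapped. The d6 value came from 17 of 86 cells (12.0 to 29.8%), of which 12 had a single UMI, and without the highest cell it was 0.938 CPM. After thinning, the shares were 6.17% on d6, 4.55% on d12, 14.9% on d12c and 13.9% on d20.

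*Foxq1* differed between the number ranges of d12c. It was found in 1 of 21 cells numbered 1 to 48 (4.76%, 0.12 to 23.8%) and in 16 of 30 numbered above 48 (53.3%, 34.3 to 71.7%). The 2 intervals did not overlap. The means were 0.0765 and 28.0 CPM, and the later-numbered mean was 17.0 CPM without its highest cell of 347 CPM. The later-numbered cells were the shallower ones, with a median of 276240 UMIs against 416789.

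*Foxf2*, a factor of gut and palate mesenchyme and of pericytes, was found in every group. Its mean was 1.76 CPM on d0, 0.821 on d1, 1.70 on d2, 2.75 on d3, 1.41 on d4, 2.87 on d5, 0.0446 on d6, 4.93 on d8, 0.0619 on d8c, 2.43 on d12, 14.2 on d12c and 13.2 on d20. The share of cells was 11.1% on d0 (4.92 to 20.7%), 19.4% on d12 (10.8 to 30.9%) and 31.6% on d20 (17.5 to 48.7%), and the intervals of these 3 groups overlapped. After thinning it was 7.04%, 6.06% and 19.4%. A gene of connective tissue by textbook role thus had its highest means, 14.2 and 13.2 CPM, on d12c and d20. Without the highest cell of each group the d8 and d12c means were 1.33 and 6.96 CPM, and the d20 mean was 10.3 CPM. On d12c *Foxf2* had 3.15 CPM in the earlier-numbered and 21.9 CPM in the later-numbered cells, or 0.509 and 9.72 CPM without the highest cell of each.

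On d20 *Foxf2* and *Foxq1* were often found in the same cells. Of the 12 d20 cells with *Foxq1*, 7 had *Foxf2* (58.3%), against 5 of the 26 without (19.2%). The cells with *Foxq1* had a median of 236874 UMIs and the others 162552, so depth differed in the same direction. *Foxa2* showed no such pairing: 5 of 18 cells with *Foxa2* and 7 of 20 without had *Foxq1*, and the same counts held for *Foxf2*. In the d12c cells numbered above 48 the *Foxq1* and *Foxf2* difference was smaller. There 6 of 16 cells with *Foxq1* (37.5%) and 28.6% of those without had *Foxf2*.

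*Foxc1* and *Foxc2*, related factors of somites, blood vessels and the eye, were present in the starting fibroblasts and were not found on d20. *Foxc1* had means of 5.93 CPM on d0, 8.74 on d1, 4.00 on d2, 6.81 on d3, 1.39 on d4, 4.94 on d5, 2.07 on d6, 1.13 on d8, 4.29 on d8c, 1.49 on d12 and 7.50 on d12c, and no UMI in 38 d20 cells, which allows a share of up to 7.89%. It was found in 15 of 72 cells on d0 (20.8%, 12.2 to 32.02%) and 21 of 40 on d1 (52.5%, 36.1 to 68.5%), with intervals that did not overlap. The same shares after thinning were 11.3% (4.99 to 21.0%) and 30% (16.6 to 46.5%), with intervals that overlapped. Depth differed between these days, with medians of 344196 and 749158 UMIs. The d0 level was uneven over running numbers, with 9.76 CPM in the 43 cells numbered 1 to 48 and 0.247 CPM in the 29 numbered above 48. All d1 cells carried numbers up to 48, and within that range the mean was 9.76 CPM on d0 and 8.74 CPM on d1. Within it 12 of 43 d0 cells had a UMI (27.9%, 15.3 to 43.7%), an interval that overlapped that of d1. Later days were uneven too: *Foxc1* was found in 0 of 40 d4 cells numbered 1 to 48 and 7 of 37 above 48. On d8 the counts were 10 of 42 and 0 of 20. On d12c *Foxc1* had 0.47 CPM in the earlier-numbered cells and 12.4 CPM in the later-numbered ones (6.39 CPM without the highest cell), with a UMI in 4 of 21 and 6 of 30 cells.

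*Foxc2* was found in more cells. Its means were 3.39 CPM on d0, 7.86 on d1, 7.38 on d2, 7.39 on d3, 4.87 on d4, 2.34 on d5, 2.87 on d6, 1.56 on d8, 12.4 on d12 and 3.01 on d12c. No UMI was counted in the 20 d8c or the 38 d20 cells, which allows shares of up to 15% and 7.89%. The d12 mean was the highest of the course and held at 10.3 CPM without its highest cell. The share of cells was 27.8% (17.9 to 39.6%) on d0, 55% (38.5 to 70.7%) on d1, 11.3% (4.66 to 21.9%) on d8 and 55.2% (42.6 to 67.4%) on d12. It was thus low on d8 and high again on d12, and the intervals of these 2 groups did not overlap. After thinning the shares were 9.86% on d0, 20% on d1, 1.69% on d8 and 18.2% on d12. On d12c *Foxc2* had a UMI in 9 of 21 cells numbered 1 to 48 (21.8 to 66.0%) and 2 of 30 numbered above 48 (0.818 to 22.1%). The 2 intervals overlapped, and the earlier-numbered cells were the deeper ones.

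*Foxd1*, a factor of kidney stroma and retina, did not follow the Foxc genes. Its means were 3.82 CPM on d0, 5.25 on d1, 0.878 on d2, 3.46 on d3, 0.44 on d4, 6.05 on d5, 0.0284 on d6, 2.33 on d12, 12.6 on d12c and 7.17 on d20, and no UMI was counted on d8 or d8c. All 8 *Foxd1* cells of d0 were numbered 1 to 48, and so were all 7 of d2, whereas no d0 or d2 cell numbered above 48 had it. The 3 d4 cells with *Foxd1* were all numbered above 48. The group means of *Foxd1* on d0, d2 and d4 therefore each came from 1 number range. On d12c it was found in 1 of 21 earlier-numbered cells (0.0393 CPM) and 10 of 30 later-numbered cells (21.4 CPM, or 17.2 CPM without the highest). On d20, 4 of 38 cells (10.5%, 2.94 to 24.8%) carried it, each over 20 CPM.

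**Figure D3:**
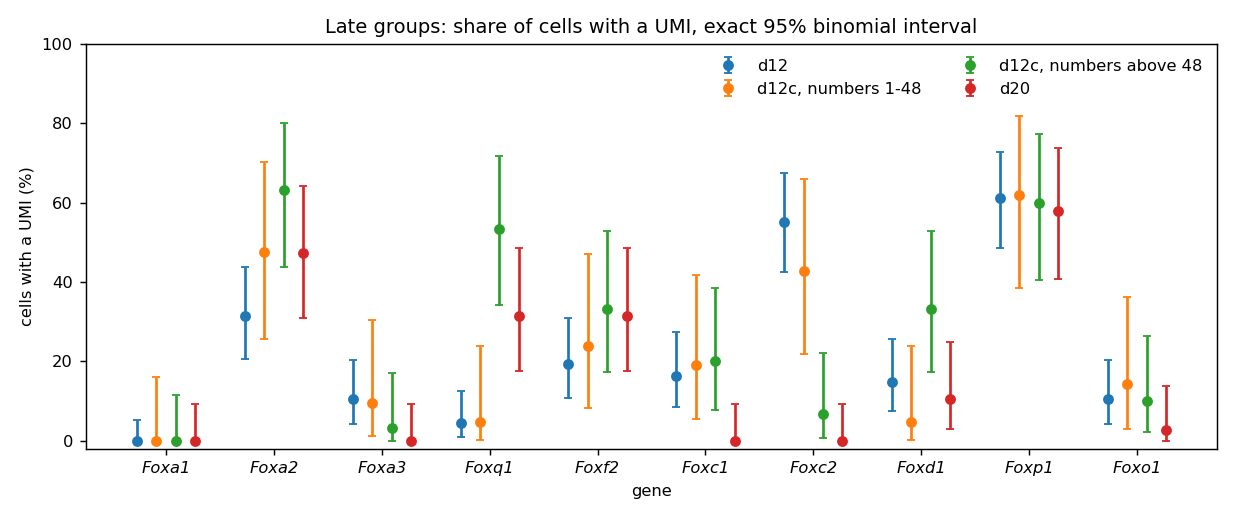
Share of cells with a UMI for the 10 genes in the late groups. Points are shares in percent and bars are exact 95% binomial intervals, for d12, d12c cells numbered 1 to 48, d12c cells numbered above 48 and d20. *Foxq1* stands at 4.76% and 53.3% in the 2 number ranges of d12c, *Foxc2* at 42.9% and 6.67%, and *Foxp1* lies between 57.9% and 61.9% in all 4 groups.

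*Foxp1*, a broadly made repressor, was detected in 438 of 670 cells and in every group. Its mean was 62.1 CPM on d0, 42.0 on d1, 33.4 on d2, 31.4 on d3, 21.0 on d4, 16.4 on d5, 29.9 on d6, 9.70 on d8, 2.53 on d8c, 23.0 on d12, 25.2 on d12c and 39.4 on d20. The level was thus highest at the start, lowest around day 8 and intermediate at the end. Its share of cells was 80.6% (69.5 to 88.9%) on d0, 40.3% (28.1 to 53.6%) on d8, 61.2% (48.5 to 72.9%) on d12 and 57.9% (40.8 to 73.7%) on d20, and the intervals of d0 and d8 did not overlap. After thinning the shares were 54.9% on d0, 16.9% on d8, 30.3% on d12 and 47.2% on d20. In neighbouring places of the order of means all 11 pairs of intervals overlapped. *Foxp1* overlaps *Eif4e3*, which encodes a cap-binding protein, on the same strand in GENCODE M1, so reads could be assigned to either gene.

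*Foxo1*, a target of insulin and growth factor signalling, had its highest mean on d6 and its highest share of cells on d8. Shares from d0 to d5 ran from 13.9% on d5 to 27.5% on d1. Its means were 7.42 CPM on d0, 4.47 on d1, 1.78 on d2, 1.15 on d3, 5.65 on d4, 1.22 on d5, 12.5 on d6, 7.83 on d8, 7.64 on d8c, 0.456 on d12, 2.29 on d12c and 3.13 on d20. The d8 mean was 4.06 CPM without its highest cell and the d6 mean 9.61 CPM. A UMI was found in 27 of 86 cells on d6 (31.4%, 21.8 to 42.3%), 21 of 62 on d8 (33.9%, 22.3 to 47.0%), 7 of 67 on d12 (10.4%, 4.30 to 20.3%) and 1 of 38 on d20 (2.63%, 0.0666 to 13.8%). The intervals of d6 and d8 lay above those of d12 and d20, though d12 was the deeper group. After thinning the shares were 13.6%, 11.9%, 4.55% and 2.78%, with intervals that overlapped. The whole d20 level came from 1 cell of 119 CPM.

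The comparisons between days asked which of these genes passed the fixed difference as the cells left the fibroblast state and reached the XEN-like state. Between d0 and d1, *Foxc1* was called higher (1.05), and 4 further members that were tested differed by less. This is 1 of 5 members tested, where 19.1% of all 9514 genes tested were called higher and 4.53% lower, and no member was called lower. Without the d0 cells numbered above 48 *Foxc1* was not called, and *Foxc2* stood at 0.87 over all cells. The median of all tested genes was itself 0.41 above d0, a shift that the *Foxc1* and *Foxc2* values include, and *Foxd1* stood at 0.44.

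Between d0 and d6, *Foxp1* was called lower (-1.72), 1 of 3 members tested against a background of 16.9% lower, and no member was called higher against 14% of genes. Within cells numbered 1 to 48 *Foxp1* was not called. *Foxo1* stood at 0.29 and *Foxc1* at -0.40. Between d0 and d12, *Foxp1* was again the only call (-1.87), 1 of 4 tested, against backgrounds of 19% higher and 15.7% lower. *Foxc2* stood at 0.91 on d12 and *Foxo1* at -0.56. These comparisons share the d0 cells, so the lower *Foxp1* on d6 and d12 rests on the same starting cells.

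Between d0 and d20, *Foxa2* (2.59), *Foxq1* (1.42) and *Foxf2* (1.11) were called higher and *Foxp1* lower (-1.10). This is 3 and 1 of 7 members tested, against backgrounds of 13.8% higher and 23% lower. *Foxa2*, *Foxq1* and *Foxf2* were below 5 CPM on d0 and passed the minimum only through d20. *Foxc1*, with no UMI on d20, stood at -0.72, below the difference required, and most d0 cells lacked it too. *Foxo1* stood at -0.61 and *Foxd1* at 0.25. Thinned to 50000 UMIs, only *Foxa2* remained called among the higher genes, and *Foxp1* was no longer called lower. *Foxf2* was also not called with all deposited cells, with cells of at least 2000 genes or in cells numbered above 48, and *Foxp1* not in cells numbered 1 to 48.

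Between d12 and d20, *Foxa2* (1.90) and *Foxq1* (1.25) were called higher and *Foxc2* lower (-1.64). This is 2 and 1 of 6 members tested, against 19.1% higher and 28.6% lower among all 10441 genes tested. *Foxa2* and *Foxq1* passed the minimum only through d20, and *Foxc2* only through d12. *Foxf2* stood at 0.96, *Foxp1* at 0.77 and *Foxd1* at 0.27. Members below 5 CPM in both groups, *Foxa1*, *Foxa3*, *Foxc1* and *Foxo1*, were not tested. Thinned to 50000 UMIs, *Foxa2* and *Foxp1* were called higher, and *Foxq1* and *Foxc2* were not called. With cells of at least 6000 genes *Foxf2* was called higher as well, and *Foxp1* stood at -0.39.

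**Figure D4:**
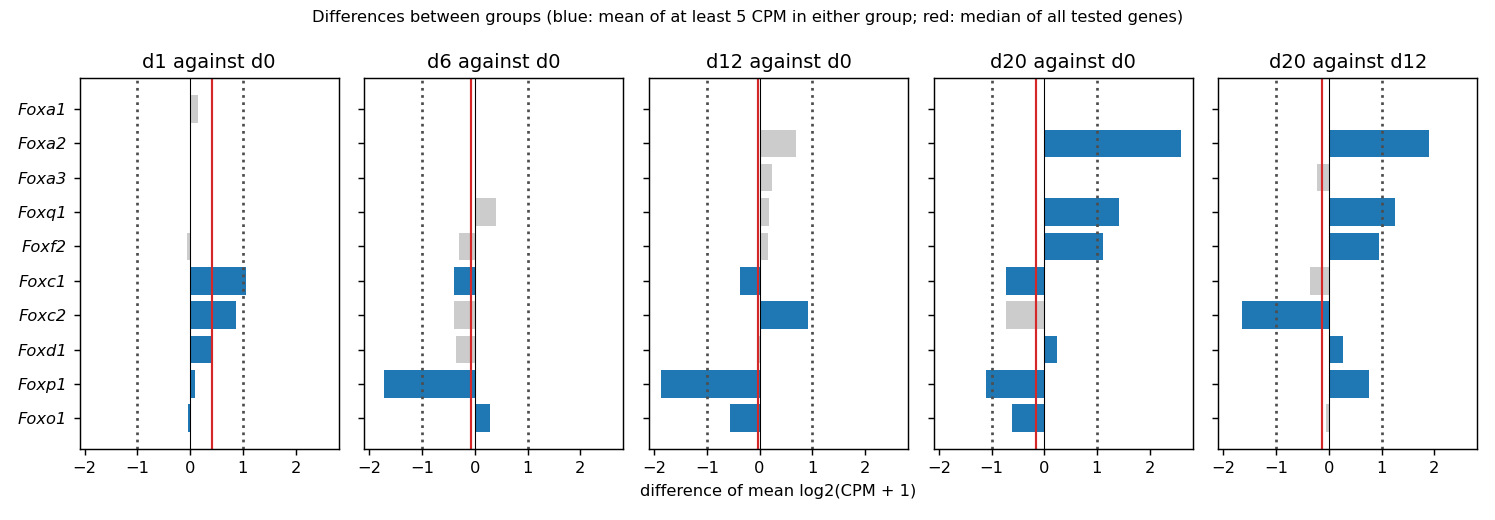
Differences of mean log2(CPM + 1) for the 10 genes in the 5 comparisons. Blue bars had a mean of at least 5 CPM in either group and grey bars did not, dotted lines mark the difference of 1 on either side and the red line is the median of all tested genes. *Foxp1* crosses the lower line on d6, d12 and d20 against d0, and *Foxa2* reaches 2.59 on d20 against d0.

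Several of these genes are neighbours in the genome but differed in level. In GENCODE M1 on NCBIM37 (mm9), *Foxq1* (chr13:31650039-31652839), *Foxf2* (chr13:31717685-31723272) and *Foxc1* (chr13:31898515-31902504) lie on the plus strand of chromosome 13, with the starts of *Foxf2* and *Foxc1* 67.6 and 248 kb after that of *Foxq1*. On d20 these neighbours differed, with *Foxq1* and *Foxf2* in 12 of 38 cells each and *Foxc1* in none, and on d1 the order was the opposite, with *Foxc1* in 21 of 40 cells, *Foxf2* in 6 and *Foxq1* in 1. *Foxc2* (chr8:123640071-123642792) starts 31.8 kb after *Foxf1*, a factor of gut and lung mesenchyme. *Foxf1* had a UMI in 48 of 67 d12 cells and *Foxc2* in 37, and neither had one in 38 d20 cells. *Foxf1* was called higher on d12 than on d0 (1.92) and lower on d20 than on d12 (-2.07), whereas its relative *Foxf2* was not called between d12 and d20 and was higher on d20 than on d0. *Foxq1*, *Foxc1*, *Foxc2* and *Foxd1* are annotated as single exons, and *Foxd1* (chr13:99124200-99126660) lies on chromosome 13 far from the others.

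**Figure D5:**
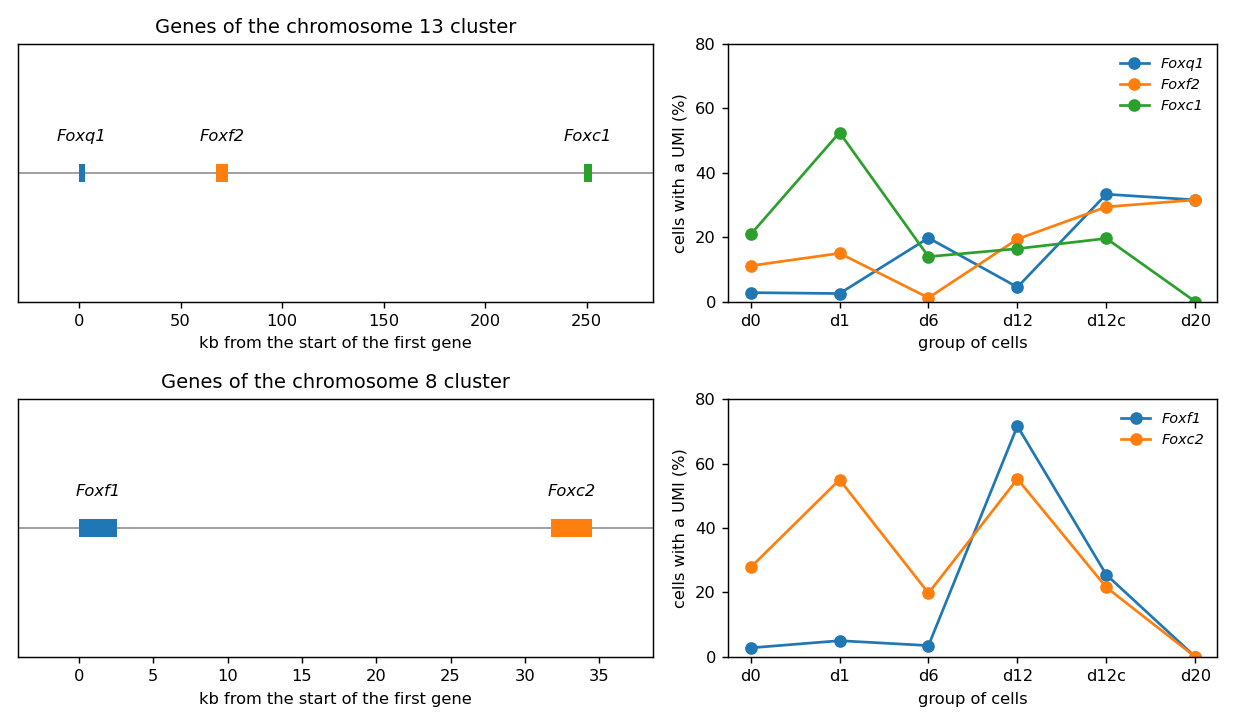
Neighbouring forkhead genes and the cells that held them. On the left the genes are drawn to scale as distance in kb from the start of the first gene, and on the right the points are the share of cells with a UMI in percent for d0, d1, d6, d12, d12c and d20. *Foxc1* peaks on d1 with 52.5% and is at 0 on d20, where *Foxq1* and *Foxf2* both stand at 31.6%, and *Foxf1* and *Foxc2* peak on d12 and are both at 0 on d20.

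Of 34 other forkhead genes with an entry, 13 reached 5 CPM in some group. Between d0 and d20, 9 of them were tested, 1 was called higher and 3 lower, against 13.8% higher and 23% lower among all genes tested. With so few genes these counts were near the background. *Foxo4*, a relative of *Foxo1*, was higher (2.53, from 0.547 to 21.0 CPM), and *Foxs1*, a gene of pericytes and other perivascular cells, *Foxn2* and *Foxj3* were lower (-1.60, -1.70 and -1.06). Thus *Foxo4* and *Foxo1* stood on different sides, *Foxo1* at -0.61 without a call. The others at 5 CPM or above were *Foxd2*, *Foxf1*, *Foxj2*, *Foxk1*, *Foxk2*, *Foxm1*, *Foxn3*, *Foxp2* and *Foxp4*. In the other comparisons, 0 of 7 such genes tested were higher and 1 lower on d1 against d0 (19.1% and 4.53% of all genes). On d6 against d0, 0 of 8 were higher and 3 lower (14% and 16.9%). On d12 against d0, 1 of 9 was higher and 2 lower (19% and 15.7%). On d20 against d12, 1 of 8 was higher and 4 lower (19.1% and 28.6%).

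Among regulators and products that are found with Foxa factors, only regulators were tested between d0 and d20, and these moved in the same direction as *Foxa2*. Of 12 such genes reported here, 5 were tested between d0 and d20 and all 5 were called higher, with a median of 5.64 against -0.15 over all genes tested, of which 13.8% were higher: *Gata4* (5.70), *Gata6* (1.11), *Sox17* (9.57), *Sox7* (5.11) and *Sall4* (5.64). *Hnf4a*, *Ttr* and *Apob*, genes of visceral endoderm and liver, had means of 0.427, 0.955 and 0 CPM on d20. Between d12 and d20, 4 of 5 were higher, against 19.1% of all genes, and *Gata6* stood at -0.24. Between d0 and d12, 3 of 3 tested were higher, against 19% of all genes, and on d1 and d6 none of 2 tested passed. *Gata4*, *Sox17*, *Sox7* and *Sall4* had a UMI in 2, 1, 6 and 0 of 72 d0 cells. Against d0 they passed the minimum of 5 CPM only through the later group, so these counts could hardly have gone the other way. The 12 genes were listed with their pattern in earlier results of these cells known, and the *Foxa2* values are not supported by them.

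Of 16 regulators of connective tissue reported here, 14 were tested between d0 and d20, of which 11 were called lower against 23% of all genes, with a median of -2.20 against -0.15. *Prrx1* (-6.62), *Twist2* (-6.47) and *Osr1* (-5.30) were among the lower ones. *Foxf2* and *Foxd1*, at 1.11 and 0.25, were thus on the other side from most of this list. Between d12 and d20, 9 of 13 were lower, against 28.6% of all genes. Against d0, 6 of 14 were higher and 1 lower on d1 (19.1% and 4.53% of all genes). On d6, 4 were higher and 2 lower (14% and 16.9%), and on d12 4 higher and 2 lower (19% and 15.7%).

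Among 17 genes reported here that control Foxo factors or are known to be regulated by them, 15 were tested between d0 and d20, with 3 higher and 4 lower against 13.8% higher and 23% lower among all genes tested, and a median of -0.23 against -0.15. In this comparison the counts were near the background. *Cdkn1b*, a cell cycle inhibitor, was higher (1.81, from 5.38 to 40.3 CPM), and so were *Gadd45a* (2.52) and *Cat* (1.28). *Pik3ca*, the catalytic subunit of PI3K, was lower (-1.84), with *Akt1* (-1.02), *Akt2* (-1.05) and *Trib1* (-1.52). Between d12 and d20, 2 of 15 were higher and 9 lower, against 19.1% and 28.6% of all genes. Against d0, 7 of 12 were higher and 1 lower on d1 (19.1% and 4.53% of all genes). On d6, 5 of 15 were higher and 1 lower (14% and 16.9%), and on d12 8 of 14 higher and 1 lower (19% and 15.7%). The counts lower on d20 against d12 and higher on d1, d6 and d12 lay above these shares, in a list chosen with earlier results known. In these lists the counts for d1, d6, d12 and d20 against d12 compare with the backgrounds given above for each comparison.

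Genes with the most similar course over the 12 groups were found by Pearson's r of log2(mean CPM + 1), as a description over 12 points that share libraries and depth. For *Foxa2* they were *Slc38a5* (0.999) and *Slc30a10* (0.998), membrane transporters, and *Elf3* (0.998), an epithelial factor, and since *Foxa2* was at 0 in 9 of the 12 groups, these values rest on d12, d12c and d20. *Foxq1* was most like *Map7d2* (0.955), *Trim71* (0.938) and *Gcdh* (0.930), and *Foxf2* most like *Hsbp1l1* (0.927), *Tor3a* (0.918) and *Nfatc1* (0.917). *Foxc2* was most like *Layn* (0.932), *Lsm11* (0.912) and *Abcc1* (0.904), and *Foxc1* most like *Gabpb2* (0.870), *Zrsr1* (0.860) and *Armc6* (0.843). *Foxd1* was most like *Pla2g16* (0.934), *Nup54* (0.927) and *Traf6* (0.902), *Foxp1* most like *Eef2k* (0.934), *Bid* (0.915) and *Zdhhc21* (0.913), and *Foxo1* most like *Lsm7* (0.957), *Mdp1* (0.898) and *Coa3* (0.895). For the rare genes, *Foxa3* was most like *4933417D19Rik* (0.960), *Krtap4-16* (0.960) and *Lhx1* (0.949), and *Foxa1* most like *Ptpro* (0.927), *Glra1* (0.910) and *Shisa3* (0.849). The values for these rare genes rest largely on the single d12 cell with most *Foxa3* UMIs and the single d5 cell with most *Foxa1* UMIs. Among the members themselves, *Foxa2* had r of 0.84 with *Foxq1*, 0.79 with *Foxf2*, 0.61 with *Foxd1*, -0.33 with *Foxc1* and -0.26 with *Foxc2*.

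Most cells held few of these genes at once. The mean number of the 10 with a UMI was 1.72 per cell on d0, 2.65 on d1, 0.7 on d8c, 2.24 on d12, 2.61 on d12c and 1.82 on d20. A cell with none of the 10 was rarest on d1, with 2.5% of cells, and most frequent on d8c, with 55%. Depth differed between these groups, and its part in these counts was not tested.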

How the data were processed

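Single cells of the C6FAE course were measured by RNA-seq with UMIs. The deposited values are counts, whole numbers of UMIs per gene and cell. To make them, the authors assigned reads to cells by barcode, trimmed the reads, mapped them to mm9 transcripts and collapsed reads with the same UMI. The aligner and the strand setting are not given in the sources used here.

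The table held 23201 gene entries, of which 4 with repeated names were left out, and 92 ERCC spike-in RNAs, which were left out of library sizes. The 670 cells in which 4000 or more genes were detected were kept, and their depth ran from 17633 to 6004864 UMIs (median 510306). The series lists 10 batches, and no cell could be assigned to one, so all cells were 1 sample and no p-value was computed. All columns of the table were used. CPM were computed per cell and averaged, log2(CPM + 1) was used, and genes were called at a difference of over 1 with a mean of at least 5 CPM in either group. Thinning to 50000 UMIs was possible in 647 cells. Where no cell had a UMI, the upper limit given is that of 3 cells. Intervals are exact at 95% and cover counting error only.

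The members and gene lists were chosen with earlier results of these data known. Named genes are the members, the 3 genes most like each of them by Pearson's r among genes with at least 5 CPM in some group, and the genes of the lists given in the text. From each list of endoderm genes, connective tissue regulators and Foxo-related genes, 1 gene is not reported here and is in none of the counts. *Foxf1* was also described as a neighbour of *Foxc2*. Alternatives covered the filter on cells, pseudocount, scaling (TMM of edgeR 4.0.16 and size factors of DESeq2 1.42.0 on group sums, R 4.3.3), averaging, thinning, the number range of cells, leaving out the cell of highest CPM, the thresholds and the kind of correlation. Gene positions are from GENCODE M1 (NCBIM37, mm9) and promoters from RefSeq (GRCm38.p6), both counted from 1. The software was Python 3.11.15 (scipy 1.17.1, pandas 2.3.3, numpy 2.4.6, matplotlib 3.10.9). The calling of genes was tried on simulated cells with the group sizes of d20 and d12. In this trial 200 genes were given a 16-fold change, and the calling found 200 of them. It also called 302 of the 8951 tested genes that had been left as they were. Smaller changes, like the differences called for the members, were not simulated, so the trial cannot tell how reliable those calls are.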

Additional observations from a re-analysis of the deposited data

Results flagged for a closer look

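The 138 cells left out for having fewer than 4000 detected genes were in no comparison, yet 4 of the genes had UMIs in more than 3 of them, the limit that a count of 0 allows. *Foxq1* was found in 14 of them, *Foxa2* in 8, *Foxp1* in 21 and *Foxo1* in 5. None of the 54 left-out cells from d0 to d8c had *Foxa2* or *Foxq1*, so all 8 and all 14 came from d12, d12c and d20. For *Foxp1* and *Foxo1*, 8 and 3 of the 54 earlier cells had a UMI. The filter took out 12 of the 84 d0 cells, 45 of the 96 d12c cells and 34 of the 72 d20 cells.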

How the results depend on the processing

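Among the called differences, *Foxa2* at d20 against d0 and *Foxc2* at d20 against d12 had no UMI in 1 of the 2 groups. The sign of these could hardly change under the alternatives. None of the 10 called differences changed sign. The 40 that were not called did so in 20 instances over the alternatives, a count added after seeing the data, among them *Foxo1* at d20 against d12 (-0.05, and 1.51 with log2 of the mean) and *Foxp1* at d20 against d12 (0.77, and -0.39 with at least 6000 genes). The called members were the same with DESeq2 scaling and without a minimum CPM. With all deposited cells or at least 2000 genes *Foxf2* lost its call at d20 against d0 (2 higher), and with at least 6000 genes it gained one at d20 against d12 (3 higher). With a pseudocount of 10 the counts of called members were 0 higher at d1, 0 lower at d6, 0 lower at d12, and 1 higher (*Foxa2*) and 0 lower at d20, each against d0, and 0 higher and 0 lower at d20 against d12. At a difference of over 2 these 7 counts were the same. With log2 taken of the mean CPM, *Foxc2* in place of *Foxc1* was higher at d1, 2 were lower at d6 (*Foxc1*, *Foxp1*), 1 higher (*Foxc2*) and 3 lower (*Foxc1*, *Foxp1*, *Foxo1*) at d12, 2 lower at d20 (*Foxc1*, *Foxo1*), and 4 higher at d20 against d12 (*Foxa2*, *Foxq1*, *Foxf2*, *Foxd1*). TMM scaling called 1 higher at d12 (*Foxc2*), where 21.4% of all genes tested were called higher. Thinning left 0 higher at d1, 1 higher (*Foxa2*) and 0 lower at d20 against d0, and 0 lower at d20 against d12, where *Foxp1* replaced *Foxq1* among the 2 higher. Cells numbered 1 to 48 gave 0 higher at d1, 0 lower at d6 and *Foxc1* in place of *Foxp1* lower at d20 against d0, and cells numbered above 48 gave 1 higher (*Foxc2*) and 2 lower (*Foxp1*, *Foxo1*) at d12 and 2 lower (*Foxp1*, *Foxo1*) at d20, with *Foxd1* in place of *Foxf2* among the 3 higher at d20 against d0 and added at d20 against d12. The cause of these moves was not tested. Apart from TMM scaling, the shares of all genes called under these settings are not given, so these counts have no background beside them. Of the 30 genes most like a member, 5 were shared with Spearman's rho. Of 1040 group means, 313 moved beyond the counting error of their UMIs, 80 of them when the cell of highest CPM was left out, and 91 of 680 shares moved beyond their intervals, 60 of them on thinning. TMM scaling moved the median of all tested genes at d20 against d12 from -0.13 to -0.43 and the calls from 19.1% higher and 28.6% lower to 14.6% and 33.8%. No paired analysis was possible because cell names carry no batch. Means of members below 5 CPM rest on few UMIs, and d20 was the shallowest group.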
